A study of Homo sapiens with 4 samples.

Results

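The genes described here are 60 protein-coding genes spread over the distal long arm of human chromosome 2, from TANK (start at base 161136908 on GRCh38, GENCODE 29) to STK25 (start at base 241492674), a stretch of 80.4 Mb. They were chosen by name, from the measured difference between each knockout library and the parental mean, as genes of distal 2q that were higher in the library knockout 8. Those differences are therefore given as a description and without a test. The deposited table has 26484 rows, and 15431 genes reached a normalized count of 10 in 2 or more libraries and were tested. Of the 60 members, 59 did so. The exception was GALNT3, a transferase that starts O-linked sugar chains, with normalized counts of 0, 2.63, 2.1 and 1.95 in parental 1, parental 2, knockout 2 and knockout 8. The normalized count, the unit of all levels here, is a gene's read count divided by 1 factor per library. It is not corrected for gene length, so it compares libraries within a gene.

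The 4 libraries are poly(A)-selected RNA-seq of A375, a human melanoma cell line grown in DMEM. Of these, 2 came from the parental line, whose p53 is wild type, and 2 from cells made p53 knockout by CRISPR-Cas9. The knockout columns carry the numbers 2 and 8 and are called knockout 2 and knockout 8. Whether they are 2 clones or 2 cultures is not said, and edited cells that kept p53 are not part of this comparison, so p53 loss cannot be told apart from editing and selection. Recovered reads totalled 29230554 to 36331894 per library. Of 8 melanoma and melanocyte markers, SOX10, a defining factor of the lineage, had 25662 to 30033 in all 4 libraries. The pigment genes MLANA and TYR were at 0 in all 4. MITF had 1645 and 1562 in the parental pair, 849 in knockout 2 and 1050 in knockout 8. S100B had 2138, 2037, 1728 and 1428 in that order. PMEL had 28.07 to 55.78, DCT 0.8771 to 12.7 and TYRP1 1.052 to 14.25. Of 5 blood cell markers, 4 were under 10 in every library. Of 6 fibroblast markers, COL1A2 and COL3A1 were under 10 in every library, and the rest were detected, with PDGFRB highest at 764 to 1166. Of 5 epithelial markers, CDH1 and KRT19 were under 10, while KRT8 had 926 to 1208 and KRT18 5569 to 6548. Of 3 endothelial markers, CDH5 was under 10. The part of these markers in the results was not tested.

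As background, genes that sit next to each other on a chromosome need share no pathway, but they share their stretch of DNA: tumour cell lines often carry parts of chromosomes in altered copy number, and the RNA of genes in such a part often moves together. A gene can depart from its neighbours where its own promoter or its own transcription factors set its level. The start sites of some neighbours lie back to back, so that 1 stretch of DNA serves as promoter for both. DNA and chromatin were not measured in these libraries, and no cause of the differences was tested.

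Promoter windows of 300 bases (250 before and 50 after the start site) were taken from RefSeq on GRCh38.p14 and matched 56 of the 60 members by symbol; TLK1, ATF2, XRCC5 and AAMP are the others. By the first listed RefSeq start sites, 3 pairs of members start back to back within 2000 bases: HSPD1 with HSPE1, PPIL3 with NIF3L1, and ORMDL1 with PMS1. GENCODE spans also place IDH1 (minus strand, from base 208266074) beside PIKFYVE (plus strand, from 208266267). They place NFE2L2 (minus, from 177392697) beside AGPS (plus, from 177392644) as well. These further pairs were not counted. The windows of the 3 pairs are shown because each holds the start sites of both genes of its pair. Their RNA levels can thus be read against the same DNA. A further window, that of METTL8 and DCAF17, which are not members, is shown because the difference in knockout 8 changed level between these genes. Each runs 5′ to 3′ on the plus strand. Capitals mark matches, on either strand, to the letters of a CCAAT box (CCAAT), a GC box (GGGCGG), an ETS motif (CCGGAAG), an E-box (CACGTG), a cyclic AMP response element (TGACGTCA) or a heat shock element (GAANNTTC or TTCNNGAA), and no matches overlapped in the windows shown.
HSPE1 and HSPD1, chr2:197500129-197500428: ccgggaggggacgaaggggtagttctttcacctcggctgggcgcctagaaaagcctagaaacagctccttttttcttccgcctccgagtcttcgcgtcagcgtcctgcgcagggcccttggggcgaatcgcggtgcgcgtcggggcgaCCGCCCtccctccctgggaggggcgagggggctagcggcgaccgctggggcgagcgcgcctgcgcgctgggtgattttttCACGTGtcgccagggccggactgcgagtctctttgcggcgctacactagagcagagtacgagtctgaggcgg
NIF3L1 and PPIL3, chr2:200889077-200889376: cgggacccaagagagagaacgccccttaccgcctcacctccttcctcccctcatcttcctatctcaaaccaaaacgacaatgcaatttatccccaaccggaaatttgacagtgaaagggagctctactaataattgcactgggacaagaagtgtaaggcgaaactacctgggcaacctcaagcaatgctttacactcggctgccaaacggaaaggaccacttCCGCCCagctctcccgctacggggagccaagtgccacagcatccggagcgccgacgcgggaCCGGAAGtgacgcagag
PMS1 and ORMDL1, chr2:189784200-189784499: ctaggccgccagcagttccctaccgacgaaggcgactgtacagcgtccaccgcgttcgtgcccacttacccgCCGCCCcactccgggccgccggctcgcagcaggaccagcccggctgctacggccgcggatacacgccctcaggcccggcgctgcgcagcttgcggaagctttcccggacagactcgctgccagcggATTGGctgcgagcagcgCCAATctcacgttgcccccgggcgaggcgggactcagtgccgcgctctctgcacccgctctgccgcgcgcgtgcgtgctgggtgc
DCAF17 and METTL8, chr2:171433976-171434275: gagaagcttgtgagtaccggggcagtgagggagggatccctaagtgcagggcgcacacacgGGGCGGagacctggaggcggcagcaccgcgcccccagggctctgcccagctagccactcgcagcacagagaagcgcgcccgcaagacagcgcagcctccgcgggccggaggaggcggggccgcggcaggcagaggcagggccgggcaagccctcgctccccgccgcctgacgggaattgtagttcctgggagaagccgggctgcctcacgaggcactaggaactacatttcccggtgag

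The start sites lie 105 bases apart for HSPD1 and HSPE1, 250 for PPIL3 and NIF3L1, 111 for ORMDL1 and PMS1, and 236 for METTL8 and DCAF17. All 4 windows are rich in G and C, from 55.3% in that of NIF3L1 to 72.0% in that of PMS1. A GC box match stood in each of them. Over the first listed window of each gene, 48 of 56 members (85.7%) held a GC box, against 44.6% of 27305 promoters of genes of all kinds. The ETS motif stood in 12 of 56 (21.4%, against 10.7%), the CCAAT box in 19 (33.9%, against 35.7%) and the E-box in 6 (10.7%, against 7.43%). The heat shock element stood in 1 (1.79%, against 13.7%) and the cyclic AMP response element in 0 (against 1.98%). A match is a description of the letters and not a binding site. No share was taken over promoters of the genes tested or of the other genes of the stretch. Nothing about the stretch is therefore read from these shares.

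Past a single point of the chromosome, almost every member was higher in knockout 8 than in either parental library, and before that point the members lay near 0. A difference is given as log2(normalized count + 1) of a library minus the mean of both parental libraries. Over the 59 members the median in knockout 8 was 0.46, a 1.37-fold level, and over all 15431 genes it was -0.00080. The 7 members that start before DCAF17 had a median of 0.0061 (range -0.14 to 0.14), and the 52 past it had a median of 0.47, a 1.38-fold level. Of those 52, 51 lay above both parental libraries in knockout 8. The same held for 40.2% of all genes tested, and IDH1 was the exception. In either direction, the gap to the parental mean was larger than the gap between the parental libraries in 52 of the 52, IDH1 included. The choice of the members and of the point on knockout 8 raises both counts. No share over all genes was taken for the second count, so nothing is read from it. In these bulk libraries, more RNA per cell and more cells with that RNA cannot be told apart.

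**Figure D1:**
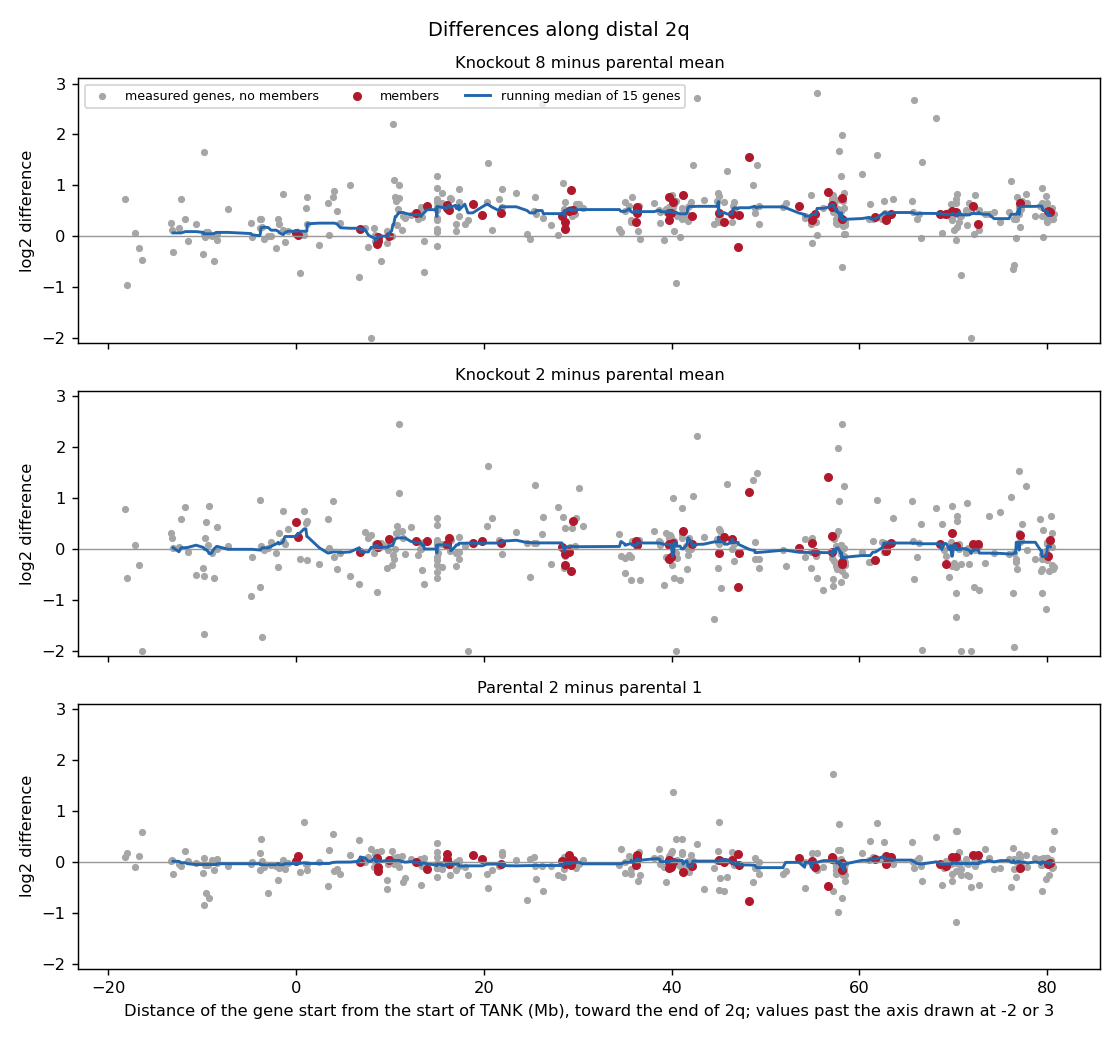
Differences (log2, vertical axis) of measured genes against the distance of their start from that of TANK in Mb, toward the end of the long arm, for knockout 8, knockout 2 and the parental pair; red points are members, grey points other genes, and the line is a running median of 15 genes. In knockout 8 the line steps up about 10.3 Mb past the start of TANK and stays there, and in the other panels it has no such step.

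The change of level fell between METTL8 and DCAF17, a pair chosen after its values were seen. METTL8, an RNA methyltransferase gene, had normalized counts of 367 and 425 in the parental pair, 318 in knockout 2 and 396 in knockout 8 (difference in knockout 8 0.0045). DCAF17, a substrate receptor of a cullin ubiquitin ligase, had 373 and 394 in the parental pair, 356 in knockout 2 and 1768 in knockout 8 (difference 2.20, 4.60-fold; limma adjusted p = 0.626). The 2 genes overlap at their starts on opposite strands in GENCODE. The pair thus differed by 2.20 in knockout 8, by 0.21 in knockout 2 and by -0.13 between the parental libraries, DCAF17 minus METTL8. Other pairs were taken by first listed start sites, with a parental mean of at least 100 in both genes. Among 16 such pairs between that point and STK25, the median gap in knockout 8 was 0.13 and the largest 0.54. Of 39 such pairs on chromosome 2 outside the stretch from TANK to STK25, the largest gap was 0.65. Pairs placed back to back only by GENCODE spans, such as IDH1 (-0.20) with PIKFYVE (0.41), were not counted. The nearest genes on the far side of DCAF17 were also above the later level. CYBRD1, an iron reductase gene, stood at 1331, 1293, 1151 and 2816 in the same order of libraries (1.10). DYNC1I2, a dynein chain, stood at 1590, 1632, 1615 and 2770 (0.78) and SLC25A12, a mitochondrial carrier, at 904, 889, 1111 and 1444 (0.69). The genes that start after these were mixed, with differences of 0.23 in HAT1, 0.53 in METAP1D, 0.75 in DLX1, 1.02 in DLX2 and 0.13 in ITGA6.

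The other measured genes of the same stretch had similar differences in knockout 8, though the point that divides them was itself chosen from these values. Of 284 such genes, 26 start before DCAF17 and had a median difference of 0.04 in knockout 8. The 258 past it had a median of 0.48, and 227 of them (88.0%) lay above both parental libraries. In steps of 10 Mb past DCAF17 the medians of all measured genes lay between 0.40 and 0.53, with 8 to 58 genes per step. The last 7 measured genes, beyond the start of STK25, had a median of 0.36. The 601 measured genes of chromosome 2 before TANK had a median of 0.019 and the 13433 placed on other chromosomes -0.0061. In knockout 2 the 258 genes had a median of 0.0027.

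**Figure D2:**
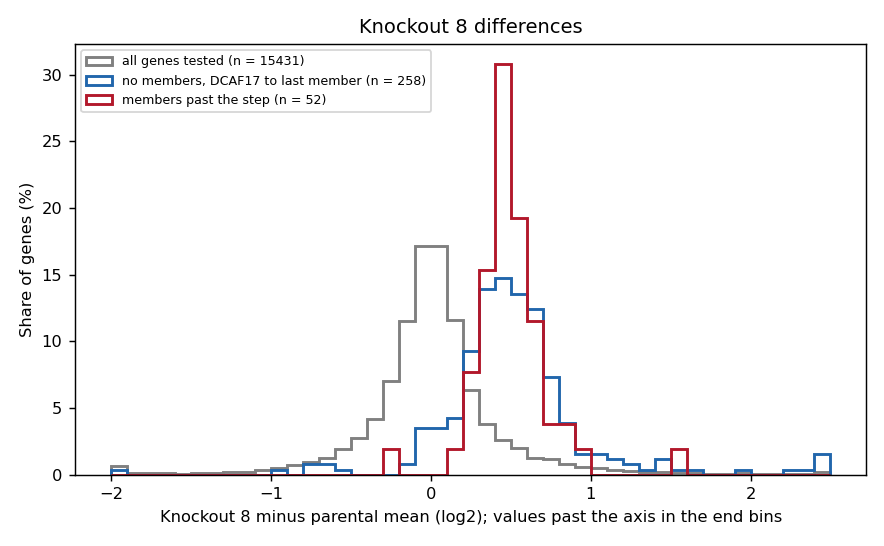
Share of genes (vertical axis, %) by difference between knockout 8 and the parental mean (log2, horizontal axis, bins of 0.1) for all 15431 genes tested, 258 genes between DCAF17 and the last member that are no members, and 52 members past that point. The grey outline peaks at 0, and both others peak near 0.5.

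The fit of the knockout pair against the parental pair contains the knockout 8 values that chose the members, so its p-values for members are descriptive. With all 4 libraries, limma with a trend called 0 of 15431 genes (0%) and 0 of 59 members, at an adjusted p of 0.05. At an unadjusted p under 0.05 it gave 10 members higher and 0 lower, against 903 and 950 over all genes. The edgeR quasi-likelihood test and limma-voom also called 0 genes and 0 members. At an unadjusted p under 0.05 each gave 10 members higher and 0 lower. Over all genes these were 946 and 921 in edgeR and 873 and 957 in limma-voom. At the same unadjusted p, DESeq2 gave 9 members higher and 1 lower, against 862 and 768 over all genes. DESeq2 called 198 of 16330 genes higher (1.21%) and 1 member, NAB1, a corepressor of EGR transcription factors. NAB1 had 2024 and 2060 in the parental pair, 2989 in knockout 2 and 2942 in knockout 8, a limma log2 fold change of 0.54 ± 0.07 (SE, n = 2 against 2, limma adjusted p = 0.199, DESeq2 adjusted p = 0.0019). It was the only member that DESeq2 called, and DESeq2 called 0 members without either parental library. With knockout 2 left out, limma called 48 of 59 members higher and 0 lower, beside 8.48% of all genes higher. That contrast chose the members, so nothing is read from the count. It has 1 knockout library, which was assumed to vary like the parental pair.

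In knockout 2 the members had a smaller median difference of 0.09, beside -0.0012 over all genes, with a range from -0.75 to 1.41. Of the 59, 38 lay above both parental libraries, beside 42.5% of all genes, and 16 below both, beside 43.5%. Of the 258 other genes past DCAF17, 113 lay above both and 112 below both. The knockout 2 values were also in view when the members were chosen, so nothing is read from these counts. With knockout 8 left out, limma called 9 of 59 members higher and 5 lower, beside 15.7% and 16.9% of all genes. Both knockout libraries lay above both parental ones in 35 of 59 members, beside 22.8% of all genes tested, a count that the choice on knockout 8 raises. Both knockout differences use the same parental libraries. Set directly against each other, knockout 8 minus knockout 2 had a median of 0.43 over the 52 members past DCAF17 and of -0.20 over the 7 before it.

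**Figure D3:**
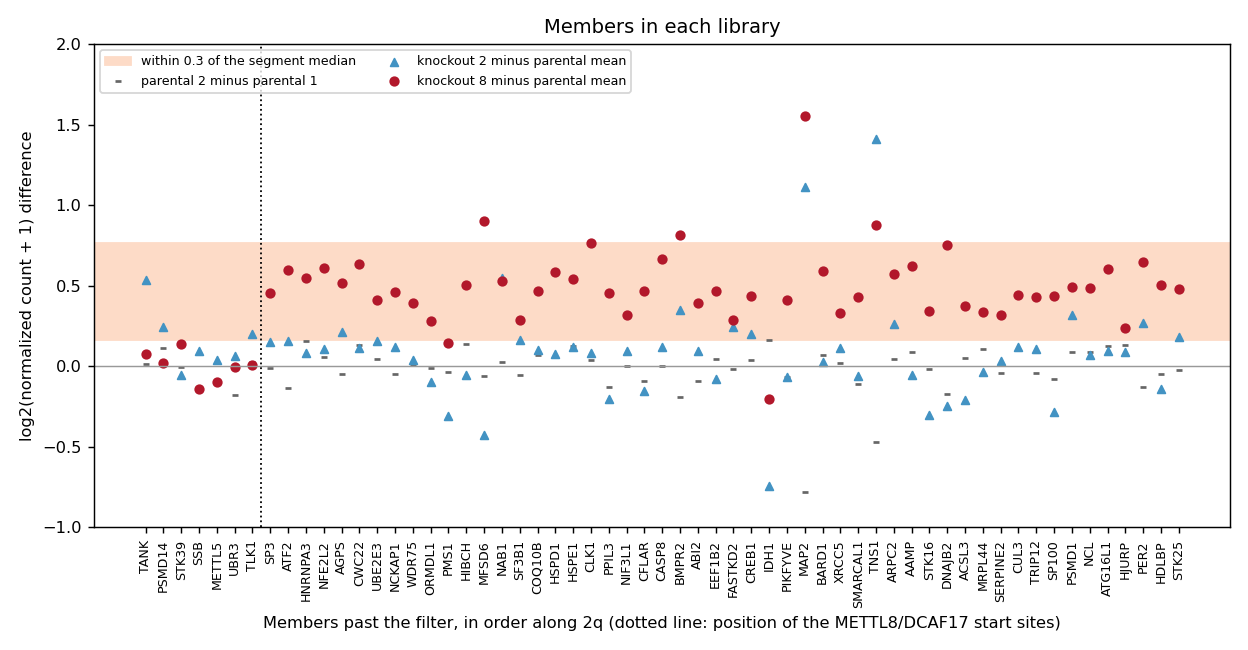
Difference from the parental mean (log2, vertical axis) of 59 members in knockout 8 (circles) and knockout 2 (triangles), with parental 2 minus parental 1 (dashes), in order along the arm; the shaded band spans 0.17 to 0.77. The 7 members left of the dotted line lie below the band in knockout 8, and 46 of the 52 on its right lie inside it.

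To ask which members followed the common shift, a member was said to follow where its difference in knockout 8 was within 0.3 of 0.47, the median of all 343 measured genes between TANK and STK25. By this rule 46 members followed, 9 lay below the band and 4 above it. Of all genes tested, 19.9% had differences in the band. All 46 start past DCAF17. Of the 9 below, 7 start before it, and the remaining 2 are PMS1 and IDH1. The 4 above were MFSD6, BMPR2, TNS1 and MAP2. Just inside the band were CLK1 (0.76), DNAJB2 (0.75) and HJURP (0.24), and just outside it BMPR2 (0.82) and PMS1 (0.14). Nearest the median were EEF1B2, CFLAR, COQ10B and NCKAP1, at 0.46 to 0.47. Of the 258 other genes past DCAF17, 181 lay in the band, 36 below and 41 above; with a parental mean of at least 100 these were 150, 23 and 21 of 194. Counting error alone gave the differences of the 52 members a median SE of 0.036 and a largest one of 0.40, in MAP2.

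Members before the point of change had levels in knockout 8 close to the parental ones, so the description of the whole list as higher in knockout 8 holds for its later part. TANK, an adaptor of innate immune kinases, had 747 and 754 in the parental pair, 1087 in knockout 2 and 789 in knockout 8. PSMD14, the deubiquitinase of the proteasome lid, had 3900, 4227, 4818 and 4113 in the same order. TLK1, a kinase of chromatin assembly, had 846, 861, 983 and 858. In all 3 of these knockout 2 was the highest library. STK39, a kinase that controls ion transporters, had 463, 460.5, 444 and 508 and UBR3, an E3 ubiquitin ligase, 1047, 925, 1029 and 981. SSB, the La protein that protects new RNA polymerase III transcripts, had 2901 and 3060 in the parental pair, 3177 in knockout 2 and 2701 in knockout 8, and METTL5, which methylates ribosomal RNA, had 606, 567, 602 and 548. For both, knockout 8 was the lowest library. SSB and METTL5 overlap at their ends on opposite strands. Whether reads were counted by strand is not given in the sources used here, so reads could be exchanged between them.

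IDH1 and PMS1 lie past the point of change but stood below the band. IDH1, the cytosolic NADP-dependent isocitrate dehydrogenase, had 4028 and 4508 in the parental pair, 2540 in knockout 2 and 3699 in knockout 8, so that both knockout libraries lay below both parental ones (differences -0.75 and -0.20; limma adjusted p = 0.444, DESeq2 adjusted p = 0.444). Knockout 8 exceeded knockout 2 by 0.54 in IDH1, beside the median of 0.43 for the 52 members. PMS1, a mismatch repair protein, had 864 and 842 in the parental pair, 687 in knockout 2 and 942 in knockout 8. Knockout 2 was the lowest library and knockout 8 the highest, 0.46 above knockout 2. Its back-to-back neighbour ORMDL1, an inhibitor of sphingolipid synthesis, had 1049 and 1039 in the parental pair, 978 in knockout 2 and 1270 in knockout 8, the same order of libraries. PIKFYVE, a lipid kinase of endosomes that lies back to back with IDH1 by GENCODE spans, stood within the band at 2920, 2786, 2718 and 3797. Its difference in knockout 8 was 0.41, beside -0.20 in IDH1.

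**Figure D4:**
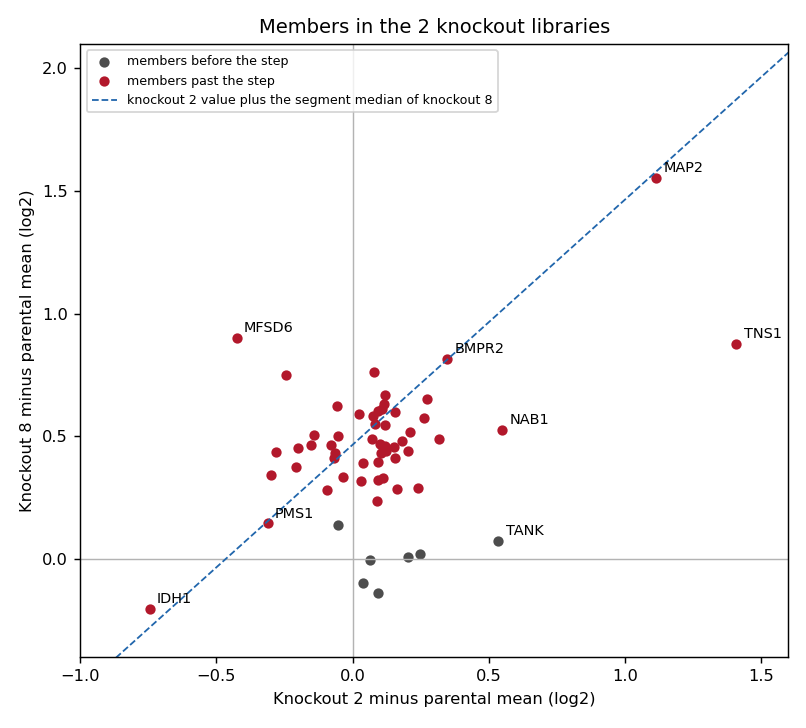
Difference from the parental mean (log2) of 59 members in knockout 8 (vertical axis) against knockout 2 (horizontal axis); both use the same parental mean. The dashed line is the knockout 2 value plus 0.47, and IDH1, PMS1, BMPR2 and MAP2 lie near it, while MFSD6 lies above it and NAB1 and TNS1 below it.

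Members above the band also differed in knockout 2. MAP2, a neuronal protein of microtubules, had the lowest normalized counts of the members tested, with 14.2 and 7.89 in the parental pair, 24.2 in knockout 2 and 33.2 in knockout 8 (1.55 in knockout 8, 1.11 in knockout 2). It rests on few reads, and the parental libraries themselves differed by -0.78. TNS1, tensin, which links integrins to actin, had 64.7 and 46.5 in the parental pair, 147 in knockout 2 and 102 in knockout 8 (0.88 and 1.41), with knockout 2 the highest library. BMPR2, a receptor of bone morphogenetic proteins, had 1759 and 1540 in the parental pair, 2094 in knockout 2 and 2897 in knockout 8 (0.82 and 0.35). These 3 genes were above both parental libraries in both knockouts, and none was called by limma (adjusted p = 0.370, 0.317 and 0.363) or DESeq2 (0.658, 0.192 and 0.134). MFSD6, a transporter-like membrane protein, had 447 and 429.8 in the parental pair, 326 in knockout 2 and 820.4 in knockout 8 (0.90 and -0.43), so the knockouts lay on either side of the parental pair.

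Transcription factors and regulators past the point of change numbered 7, and all 7 lay in the band, from 0.44 to 0.65. As in the groups below, the choice on knockout 8 raises this count. Of the 258 other genes past DCAF17, 181 also lay in the band. NFE2L2, or NRF2, the regulator of antioxidant genes, had 3265 and 3395 in the parental pair, 3591 in knockout 2 and 5084 in knockout 8. ATF2, a stress-responsive factor of the AP-1 family, had 1468, 1337, 1561 and 2122 in that order, and CREB1, the factor of cyclic AMP signalling, 1591, 1635, 1856 and 2187. For these genes knockout 2 was also above both parental libraries, by a smaller amount. SP3, which binds GC boxes, had 2844, 2828, 3148 and 3888. PER2, a repressor of the circadian clock, had 145, 132, 167 and 218. SP100, a protein of nuclear bodies, had 1891, 1790, 1512 and 2490, with knockout 2 the lowest and knockout 8 the highest library. NAB1 differed from the rest of the group in having nearly the same level in both knockouts.

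Genes of DNA repair and the centromere had a median of 0.33 in knockout 8, and all 5 lay above both parental libraries. The same held for 88.0% of the 258 other genes past DCAF17 and 40.2% of all genes tested. XRCC5, the Ku80 subunit that binds broken DNA ends, had 15126 and 15362 in the parental pair, 16460 in knockout 2 and 19130 in knockout 8. BARD1, the partner of BRCA1, had 442, 465, 461 and 684, and SMARCAL1, which remodels stalled replication forks, had 615, 571, 567 and 799. HJURP, the chaperone of the centromeric histone CENP-A, had 2072, 2274, 2311 and 2557, the smallest difference among members that followed. Of these 5 genes, knockout 2 lay above both parental libraries in 2 and below both in 2, beside 42.5% and 43.5% of all genes tested.

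Of the members that process RNA or serve translation, all 9 past the point of change lay in the band, with a median of 0.49 in knockout 8. NCL, nucleolin, had 22173 and 23608 in the parental pair, 24018 in knockout 2 and 32105 in knockout 8. SF3B1, a core subunit of the U2 spliceosome particle, had 12664, 12199, 13924 and 15154, and HDLBP, the RNA-binding protein vigilin, 16331, 15799, 14540 and 22815. CLK1, a kinase of splicing factors, had the largest difference of the group, at 1238, 1271, 1326 and 2130. EEF1B2, a translation elongation factor, had 9716, 10009, 9332 and 13611 and HNRNPA3 10735, 11955, 11999 and 16560. CWC22, a splicing factor, WDR75, needed for ribosome making, and PPIL3, a spliceosomal isomerase, had differences of 0.63, 0.39 and 0.45. All 9 lay above both parental libraries in knockout 8, a count that the choice on knockout 8 raises. The same held for 88.0% of the 258 other genes past DCAF17 and 40.2% of all genes tested. GENCODE lists 15 processed pseudogenes named after HNRNPA3 and 7 after EEF1B2, so their counts depend on how reads with several alignments were treated, which is not given in the sources used here.

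The 7 mitochondrial members lay in the band as well, from 0.29 to 0.58. HSPD1, the chaperonin HSP60, had 16779 and 17468 in the parental pair, 18026 in knockout 2 and 25646 in knockout 8, and its cochaperonin HSPE1, HSP10, had 580.0, 633, 659 and 884. The pair shares its promoter window, and the difference in knockout 8 was 0.58 for HSPD1 and 0.54 for HSPE1. GENCODE lists 16 and 24 processed pseudogenes named after them and a span of HSPD1 that covers HSPE1, so both counts are uncertain in the same way. HIBCH, an enzyme of valine breakdown, had 785, 865, 794 and 1167, and COQ10B, which binds coenzyme Q, 1e+03, 1050, 1100 and 1418. FASTKD2, an RNA-binding protein of mitochondria, had 1552, 1538, 1826 and 1887, with near equal knockout libraries. MRPL44, a protein of the mitochondrial ribosome, and NIF3L1 had differences of 0.33 and 0.32. PPIL3, back to back with NIF3L1, had 674 and 616 in the parental pair, 559.9 in knockout 2 and 883 in knockout 8, against 879, 882, 939.8 and 1100 for NIF3L1. Knockout 2 thus lay below the parental pair in one gene of this pair and above it in the other.

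**Figure D5:**
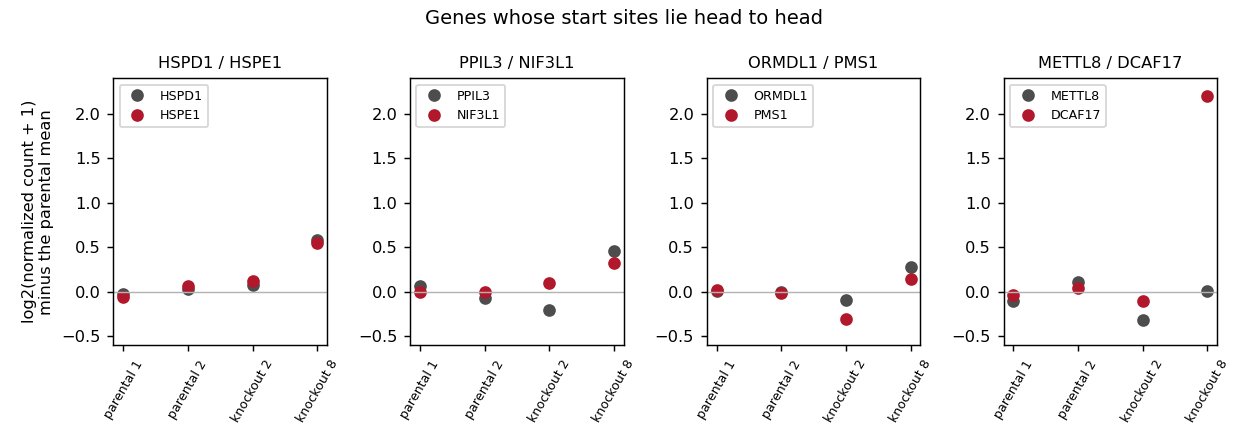
log2(normalized count + 1) minus the parental mean (vertical axis) in each of the 4 libraries for back-to-back gene pairs, 3 of members and the pair METTL8 and DCAF17. In knockout 8 the genes of each member pair shown lie within 0.14 of each other, and METTL8 and DCAF17 lie 2.20 apart. IDH1 and PIKFYVE, back to back by GENCODE spans only, are not shown (-0.20 and 0.41 in knockout 8).

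Ubiquitin, proteasome, chaperone and autophagy genes past the point of change numbered 6, all within the band, from 0.41 to 0.75. CUL3, the scaffold of a ubiquitin ligase that acts on NFE2L2, had 2719 and 2920 in the parental pair, 3065 in knockout 2 and 3826 in knockout 8. PSMD1, a scaffold of the proteasome base, had 4455, 4739, 5721 and 6453, with both knockout libraries above both parental ones (limma adjusted p = 0.290, DESeq2 adjusted p = 0.101). DNAJB2, a cochaperone, had 1229, 1093, 978 and 1950, and ATG16L1, of autophagosome formation, 1505, 1646, 1679 and 2389. TRIP12 and UBE2E3, a ubiquitin ligase and a conjugating enzyme, had differences of 0.43 and 0.41. Each of the 6 lay above both parental libraries in knockout 8, a count that the choice on knockout 8 raises. That was so for 88.0% of the 258 other genes past DCAF17 and 40.2% of all genes tested.

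Among genes of cell death and signalling, CASP8, the caspase that starts death receptor signalling, had 1399 and 1399 in the parental pair, 1521 in knockout 2 and 2221 in knockout 8. CFLAR, its catalytically inactive relative FLIP, which restrains it, had 1141, 1069, 994 and 1525. The difference in knockout 8 was 0.67 for CASP8 and 0.46 for CFLAR, and in knockout 2 it was 0.12 and -0.15. The kinases STK16 and STK25 had 949.5, 938, 766 and 1196 and 2305, 2272, 2597 and 3193. Knockout 2 was the lowest library for STK16 and the second highest for STK25.

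Metabolic members past the point of change had a median of 0.37 over 5 genes, with IDH1 as the lowest. ACSL3, which activates fatty acids, had 14887 and 15456 in the parental pair, 13144 in knockout 2 and 19648 in knockout 8, and AGPS, an enzyme of ether lipid synthesis, 3508, 3400, 3994 and 4943. Knockout 2 lay below the parental pair for ACSL3 and above it for AGPS. In 4 of these 5 genes knockout 2 was below both parental libraries, beside 43.5% of all genes tested.

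Genes of the cytoskeleton, the cell surface and the matrix had a median of 0.60 over 8 members, the group that holds MAP2, TNS1 and MFSD6. SERPINE2, a secreted inhibitor of proteases, had the highest normalized counts of the members, uncorrected for length, with 122739 and 119478 in the parental pair, 123718 in knockout 2 and 150876 in knockout 8. The actin regulators NCKAP1 and ABI2, both subunits of the WAVE complex, had 6406, 6205, 6845 and 8682 and 3863, 3629, 3993 and 4925. ARPC2, a subunit of the Arp2/3 complex that branches actin, had 5144, 5309, 6270 and 7773 (limma adjusted p = 0.345, DESeq2 adjusted p = 0.182). AAMP had 3544, 3771, 3514 and 5637, with knockout 2 below both parental libraries. All 8 lay above both parental libraries in knockout 8, beside 88.0% of the 258 other genes past DCAF17 and 40.2% of all genes tested.

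Partners of the members encoded outside the stretch were taken as lists. Their medians in knockout 8 were 0.0094 over 29 proteasome genes, -0.02 over 9 genes of the SF3B and U2 particles, 0.03 over 14 of the WAVE and Arp2/3 complexes, 0.0085 over 8 DNA repair partners and -0.12 over 7 mitochondrial chaperones and proteases. The first 2 of these lists had 0 genes in the band of the segment, the third had 1 and the last 2 had 0, beside 19.9% of all genes tested. Targets and the inhibitor of NFE2L2 had a median of 0.25 over 10 genes, and 5 lay in the band. The 1 gene of this list that DESeq2 called was HMOX1, heme oxygenase, at 171.0, 185.1, 388.3 and 360.4 in the same order (limma adjusted p = 0.202, DESeq2 adjusted p = 9.27e-04), and their median in knockout 2 was 0.20. The death receptor list had a median of 0.12 over 10 genes, with 3 in the band. Its member FAS, the receptor that recruits CASP8 through an adaptor, had 487.9, 500.0, 1061.9 and 815.5 (limma adjusted p = 0.238, DESeq2 adjusted p = 0.0016). Clock genes had a median of -0.14 over 8 genes, 2 of them in the band. DESeq2 called 1 gene higher in each of the NFE2L2 and death receptor lists and 0 in the other 6, beside 1.21% of all genes, and limma called 0 in all 8.

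Among other genes of the stretch with a parental mean of at least 100, the 5 highest in knockout 8 were IGFBP5, DCAF17, CCL20, RAPH1 and KLF7. IGFBP5, a secreted binding protein of insulin-like growth factors, had 799 and 716 in the parental pair, 721 in knockout 2 and 5314 in knockout 8 (7.02-fold in knockout 8). CCL20, a chemokine, had 217, 166, 47.4 and 526 in that order. RAPH1, a regulator of actin protrusions, and the transcription factor KLF7 had 1188, 1200, 2472 and 3171 and 614, 501, 1346 and 1353. The latter 2 were above the parental pair in both knockouts and were called by DESeq2 (adjusted p = 7.32e-09 and 3.37e-09) but not by limma (0.176 and 0.169). The 5 lowest were MPP4, AHCTF1P1, CHN1, RAB17 and SPC25. CHN1, a signalling protein of axon guidance, had 1697 and 1671 in the parental pair, 1052 in knockout 2 and 1035 in knockout 8 (DESeq2 adjusted p = 1.50e-04, limma adjusted p = 0.183). RAB17, a small GTPase of epithelial trafficking, had 1251, 1138, 315 and 813. AHCTF1P1 and SPC25 start before DCAF17.

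Over the 52 members past DCAF17, the difference in knockout 8 had little relation to place along the arm (Pearson r -0.04, Spearman rho -0.07 with distance from DCAF17) and was larger in members with lower normalized counts (r -0.53, rho -0.26 with the log2 parental mean) and, less so, in longer genes (r 0.25, rho 0.18 with log2 gene length). Over all 317 measured genes past that point these were -0.07 and -0.08, -0.21 and -0.24, and -0.01 and -0.02. With the difference in knockout 2, r was 0.60 and rho 0.31 over the members, and 0.47 and 0.28 over the 317 genes. Both differences use the same parental mean. These are correlations across genes of the same libraries, which are not independent replicates, and the relation of the members to their level includes MAP2 and TNS1, the 2 with the lowest counts.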

How the data were processed

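Gene expression was measured by RNA-seq in 2 parental and 2 p53 knockout libraries, grouped by their labels. The authors deposited 1 table of normalized signal per gene symbol and library. The tools named, per the submitters' processing notes, are DESeq2, HTSeq, STAR, deepTools and Picard, on hg38. Versions, annotation, strand setting and order of steps: not given in the sources used here. All values (100%) divided into whole steps of the lowest value in that library, within 0.001 of a read, which gave back whole reads and size factors of 0.912, 1.14, 0.950 and 1.02 for parental 1, parental 2, knockout 2 and knockout 8.

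Main test: limma 3.58.1 with a trend on log2(value + 1), over genes that reached 10 in 2 or more libraries; p-values were adjusted by Benjamini-Hochberg over all of these, with a threshold of 0.05; the code was tested on simulated data. Alternatives on the reads were edgeR 4.0.16 (quasi-likelihood, TMM), DESeq2 1.42.0 and limma-voom. Since separate cultures are not named, the spread behind all p-values is that of these libraries and may be technical. Positions came from GENCODE 29 (23824 symbols with 1 locus). Members, role groups, partner lists and markers were chosen with earlier results of these data known. Named with values were members by role, the 8 highest and 8 lowest, the 4 nearest the segment median, back-to-back pairs, and the 5 highest and 5 lowest other genes of the stretch. The level of the targeted gene is not reported here.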

Additional observations from a re-analysis of the deposited data

How the results depend on the processing

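The shift of the members depended little on the processing. With a pseudocount of 0.1, scaling by all reads, TMM factors, a filter of at least 100, or either parental library as the only reference, the median difference of the members was 0.45 to 0.48 in knockout 8 and 0.06 to 0.10 in knockout 2, and 45 to 47 members followed the segment. A band of 0.2 held 42 and one of 0.5 held 55. With genes from DCAF17 on only, a choice made after seeing the data, the medians were 0.47 and 0.09, and 46 of 52 followed. Scaling by all reads gave a median over all genes of 0.0241 in knockout 8, beside -0.0008 in the main setting. In knockout 2 these were 0.0004 and -0.0012.

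The count of calls depended on the test and on the knockout libraries. DESeq2 called 398 genes and 1 member, where limma, edgeR and limma-voom called 0; the cause was not tested. Leaving out 1 library at a time, limma called 0 to 5023 genes and 0 to 48 members. It called 0 members without either parental library, 48 without knockout 2 and 14 without knockout 8. A lone library of a group is assumed to vary like the other group. No paired analysis was possible because the knockout libraries are numbered 2 and 8 in the table and 1 and 2 in the labels, so no replicate number links them to the parental ones.

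The shift rests on 1 library, and the SEs given from read numbers cover counting error only, since no molecular identifiers are named.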
